A study of Homo sapiens with 2 samples.

Results

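The genes described here are 10 negative-feedback and output genes of the RAS-ERK (MAPK) pathway: the ERK phosphatases DUSP4, DUSP5 and DUSP6, the Sprouty genes SPRY2 and SPRY4, the related SPRED1 and SPRED2, the PEA3 transcription factors ETV4 and ETV5, and PHLDA1. They were taken by symbol from the authors' deposited table of 27655 genes, and all 10 are in it. The table belongs to a poly-A RNA-seq comparison of PC9-BrM3 cells, which were derived for spread to the brain from the lung adenocarcinoma line PC9, with a knockdown of PCDH1 (shPCDH1) and of control cells (shNC, genotype given as WT), both in routine culture. GEO lists 1 sample for each. The table sets group 8 against group 7, and which code stands for shPCDH1 and which for shNC is in no label, nor is the meaning of the 6 library codes. Every direction below is that of group 8 relative to group 7. For the same reason the 20 columns with values of a library or a group stayed unused, so levels, replicate values and depth are not given, and each gene is described by its difference alone.

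Every fold change, p and adjusted p below is that of the authors' deposited table. The value after ± is the standard error implied by the deposited p under a Wald test, and intervals are 95% intervals from it, and the Wald test is an assumption, as the sources used here do not name the authors' test. A gene is called where the authors' adjusted p is under 0.05. Whether the libraries stem from separate cultures is not given, so these p-values measure only a spread between libraries, which may be technical. PCDH1 itself, a protocadherin of cell-cell contacts, had a log2 fold change of -1.38 ± 0.14 in that table, which does not assign the codes to the labels. The identity of the cells was not checked by level. Of the marker lists, 2 of 6 epithelial genes fell and 1 rose, 2 of 6 leukocyte genes rose (ITGAM at 5.28 ± 0.85 and CSF1R at 1.84 ± 0.24), 1 of the 4 listed astrocyte genes rose, and 1 of the 7 listed fibroblast and endothelial genes rose while 1 fell. Their part in the values below was not tested. In bulk RNA, fewer cells with a transcript and less of it per cell cannot be told apart.

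Growth factor receptors such as EGFR, which carries an activating mutation in PC9 cells, signal through RAS, RAF, MEK and ERK. Active ERK switches on a set of short-lived transcripts, many of which encode brakes on the pathway: MAP kinase phosphatases strip the activating phosphates from ERK, Sprouty proteins act between the receptor and RAF, and SPRED proteins recruit the RAS GTPase-activating protein neurofibromin to the membrane. ETV4 and ETV5 are ETS-family transcription factors that carry ERK output to further genes, and their own genes are held down by the repressor capicua when ERK is inactive. Because their transcripts follow ERK activity, several of these genes are widely used as a readout of the pathway.

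RefSeq promoter windows, which run from 250 bases before to 50 bases from the transcription start on, were matched by symbol for 6 of the 10 genes, 9 windows in all on GRCh38.p14. DUSP4, DUSP5, ETV4 and ETV5 were not matched. For some genes the RefSeq start differs from the gene end given below. The PHLDA1 window, 76031727 to 76032026, lies inside its minus-strand gene, which ends at 76033932. The SPRY2 window that begins at 80341077 lies beyond the end of its gene at 80340951. The windows were searched on both strands for words bound by factors of this pathway: the AP-1 words TGAGTCA and TGACTCA, the ETS word CCGGAAGT, the capicua words TGAATGAA and TGAATGGA, the cyclic AMP response word TGACGTCA, the EGR words GCGTGGGCG and GCGGGGGCG, and the CArG box of serum response factor. The EGR words and the CArG box were added after the fold changes were seen. The words found do not overlap each other. Shown here, with a match in capitals, are the windows of the 3 genes that fell and have one (both starts of SPRED2, PHLDA1 and SPRED1) and the SPRY2 window that holds a match.
SPRED2, chr2:65432550-65432849, minus strand: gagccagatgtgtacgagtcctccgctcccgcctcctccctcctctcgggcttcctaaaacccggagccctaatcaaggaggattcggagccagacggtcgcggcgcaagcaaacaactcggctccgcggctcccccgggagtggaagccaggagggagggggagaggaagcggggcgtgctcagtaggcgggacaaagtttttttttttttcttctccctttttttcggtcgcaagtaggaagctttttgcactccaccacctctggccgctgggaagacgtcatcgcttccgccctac
SPRED2 second start, chr2:65366729-65367028, minus strand: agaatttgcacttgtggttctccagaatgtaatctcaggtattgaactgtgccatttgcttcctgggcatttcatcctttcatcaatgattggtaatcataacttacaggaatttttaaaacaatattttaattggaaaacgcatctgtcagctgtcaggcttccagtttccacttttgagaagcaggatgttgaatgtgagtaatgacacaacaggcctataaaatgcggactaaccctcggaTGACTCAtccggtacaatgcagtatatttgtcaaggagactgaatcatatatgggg
PHLDA1, chr12:76031727-76032026, minus strand: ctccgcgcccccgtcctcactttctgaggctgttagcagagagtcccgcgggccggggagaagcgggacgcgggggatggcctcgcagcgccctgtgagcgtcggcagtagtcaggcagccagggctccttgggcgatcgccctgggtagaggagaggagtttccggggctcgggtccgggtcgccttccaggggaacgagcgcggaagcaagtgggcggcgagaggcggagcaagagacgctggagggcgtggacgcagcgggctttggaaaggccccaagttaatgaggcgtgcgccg
SPRED1, chr15:38252586-38252885, plus strand: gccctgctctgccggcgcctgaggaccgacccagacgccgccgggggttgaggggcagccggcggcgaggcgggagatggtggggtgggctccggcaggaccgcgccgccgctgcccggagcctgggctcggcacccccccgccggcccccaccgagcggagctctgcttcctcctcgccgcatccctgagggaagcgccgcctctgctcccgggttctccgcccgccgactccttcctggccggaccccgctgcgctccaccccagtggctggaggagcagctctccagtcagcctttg
SPRY2, chr13:80341077-80341376, minus strand: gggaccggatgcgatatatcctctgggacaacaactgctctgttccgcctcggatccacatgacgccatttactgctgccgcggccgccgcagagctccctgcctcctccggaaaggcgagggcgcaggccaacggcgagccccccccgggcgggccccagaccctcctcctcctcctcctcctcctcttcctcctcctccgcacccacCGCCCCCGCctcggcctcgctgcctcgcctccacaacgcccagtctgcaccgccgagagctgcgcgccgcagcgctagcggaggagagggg

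The second SPRED2 start had the AP-1 word TGACTCA from position -6 to position 0, where 0 is the start base, and 4.95% of the 35116 windows in the RefSeq set hold an AP-1 word. The SPRY2 window had an EGR word from -41 to -33, against 5.77% of all windows. No other searched word occurred in the 9 windows, where the background shares were 4.14% for the ETS word, 2.63% for the capicua words, 1.85% for the cyclic AMP response word and 1.29% for the CArG box. A match is a string of letters and not a binding site, and its absence says only that the letters are not in the window. GC content of the 9 windows ran between 39.3% at the second SPRED2 start and 76.3% at SPRED1, with a median over the RefSeq set of 58.7%.

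In group 8, 6 of the 10 genes fell, 1 rose and 3 were not called. PHLDA1, SPRED2, ETV4, SPRED1, DUSP4 and DUSP5 were lower, ETV5 was higher, and DUSP6, SPRY2 and SPRY4 had log2 fold changes close to 0. Of the 18002 genes with an adjusted p below 1, 11.2% were called lower and 10.4% higher, and of the 13609 protein-coding genes among them 13.4% were called lower and 12.7% higher. The median log2 fold change over the 10 genes was -0.443, beside 0.005 over those protein-coding genes. Negative values were found for 9 of the 10. All 10 had an adjusted p below 1. The genes were chosen as a pathway set with earlier results of these data known, so these counts describe them and are no test of the pathway.

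**Figure D1:**
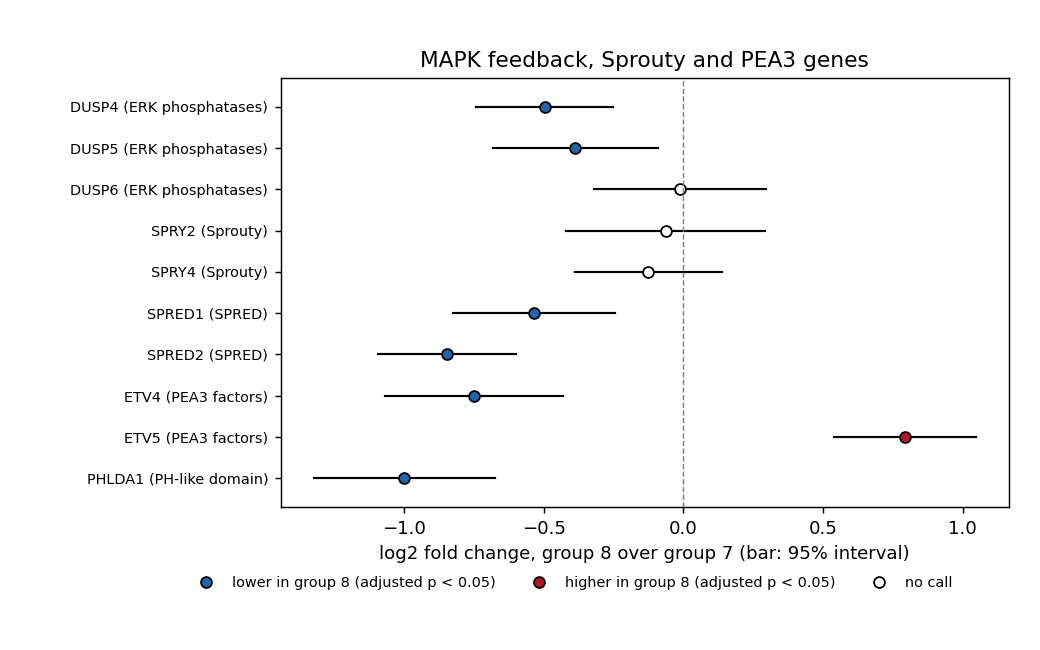
Log2 fold change of group 8 over group 7 for the 10 genes in the authors' deposited table, with 95% intervals from the implied standard error. The 6 blue points are called lower, with values between -0.9998 and -0.39, ETV5 at 0.79 is the only red point, and the intervals of DUSP6, SPRY2 and SPRY4 cross 0.

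Of the 3 ERK phosphatases, 2 fell and 1 was not called. DUSP4, a nuclear phosphatase induced by growth factors (ENSG00000120875, chromosome 8, 29333064 to 29350668, minus strand), fell to 70.9% of its group 7 level in group 8, a log2 fold change of -0.50 ± 0.12 with an adjusted p of 8.08e-04 in the authors' deposited table. DUSP5, a nuclear phosphatase that acts on ERK and also anchors it in the nucleus (ENSG00000138166, chromosome 10, 110497838 to 110511544, plus strand), fell by 0.39 ± 0.15 on the log2 scale, with an adjusted p of 0.0472 in that table. This is the value nearest the threshold, and it became 0.072 when all deposited p-values were adjusted together by Benjamini-Hochberg, which ends the call. DUSP6, the cytoplasmic ERK phosphatase and the most used transcript marker of ERK activity (ENSG00000139318, chromosome 12, 89347232 to 89353271, minus strand), was not called, at -0.01 ± 0.16 on the log2 scale and an adjusted p of 0.968 in the authors' deposited table. Its interval, -0.32 to 0.29, did not reach the values of DUSP4 and DUSP5, while the intervals of the 3 genes overlapped. The antisense gene AC024909.2 covers 40.5% of the DUSP6 exon bases on the opposite strand, and the libraries carry no strand information, so reads of the pair cannot be told apart. AC024909.2 was listed at 0.19 with an adjusted p of 1.

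The Sprouty genes were not called and the SPRED genes fell. SPRY2 (ENSG00000136158, chromosome 13, 80335976 to 80340951, minus strand) and SPRY4 (ENSG00000187678, chromosome 5, 142310427 to 142326455, minus strand) encode membrane-associated inhibitors of receptor tyrosine kinase signalling. SPRY2 had a log2 fold change of -0.06 ± 0.18, with an interval of -0.42 to 0.29 and an adjusted p of 0.858, in the authors' deposited table. SPRY4 had -0.13 ± 0.13, with an interval of -0.39 to 0.14 and an adjusted p of 0.566. The missing calls do not show that either gene was equal in both groups. SPRED1, mutated in Legius syndrome (ENSG00000166068, chromosome 15, 38252326 to 38357249, plus strand), fell by 0.54 ± 0.15 to 69.0% of group 7, with an adjusted p of 0.00266 in the authors' deposited table. SPRED2, its closest relative (ENSG00000198369, chromosome 2, 65310851 to 65432637, minus strand), fell by 0.85 ± 0.13 to 55.6%, with an adjusted p of 7.96e-10, the smallest of the 10. The interval of SPRED2, -1.09 to -0.60, lay wholly below those of SPRY2 and SPRY4, while the interval of SPRED1, -0.83 to -0.25, overlapped both. The difference between genes was not tested.

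The PEA3 factors moved in opposite directions. ETV4 (ENSG00000175832, chromosome 17, 43527844 to 43579620, minus strand) fell to 59.4% of group 7 in group 8, a log2 fold change of -0.75 ± 0.16 with an interval of -1.07 to -0.43 and an adjusted p of 7.31e-05 in the authors' deposited table. ETV5 (ENSG00000244405, chromosome 3, 186046308 to 186110318, minus strand) rose to 173% of group 7, at 0.79 ± 0.13 with an interval of 0.54 to 1.05 and an adjusted p of 3.98e-08. Among the 13609 protein-coding genes, 6.6% had a lower log2 fold change than ETV4, while 90.6% had a lower one than ETV5. ETV4 shares 68 exon bases, 1.89% of its own, with DHX8 on the opposite strand, and ETV5 shares 164, 2.83%, with DGKG on the same strand. Neither neighbour was called, at 0.05 for DHX8 and -0.41 for DGKG. The third PEA3 gene, ETV1, had -1.29 ± 0.91 with an adjusted p of 0.345, an error several times those of ETV4 and ETV5.

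PHLDA1, which encodes a protein with a pleckstrin homology-like domain and is induced by growth factors (ENSG00000139289, chromosome 12, 76025447 to 76033932, minus strand), had the lowest value of the 10. It fell to 50.01% of group 7 in group 8, a log2 fold change of -0.9998 ± 0.17 with an interval of -1.32 to -0.68 and an adjusted p of 6.05e-08 in the authors' deposited table. Only 3.5% of the protein-coding genes had a lower log2 fold change. The antisense genes AC011611.3 and AC011611.4 share 6.85% and 9.65% of its exon bases, and neither has a value here. PHLDA2, a paralog known for imprinted expression in placenta, fell by 0.78 ± 0.17, with an adjusted p of 1.22e-04. PHLDA3, a p53-induced inhibitor of AKT, had -0.34 ± 0.24 with an adjusted p of 0.355.

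**Figure D2:**
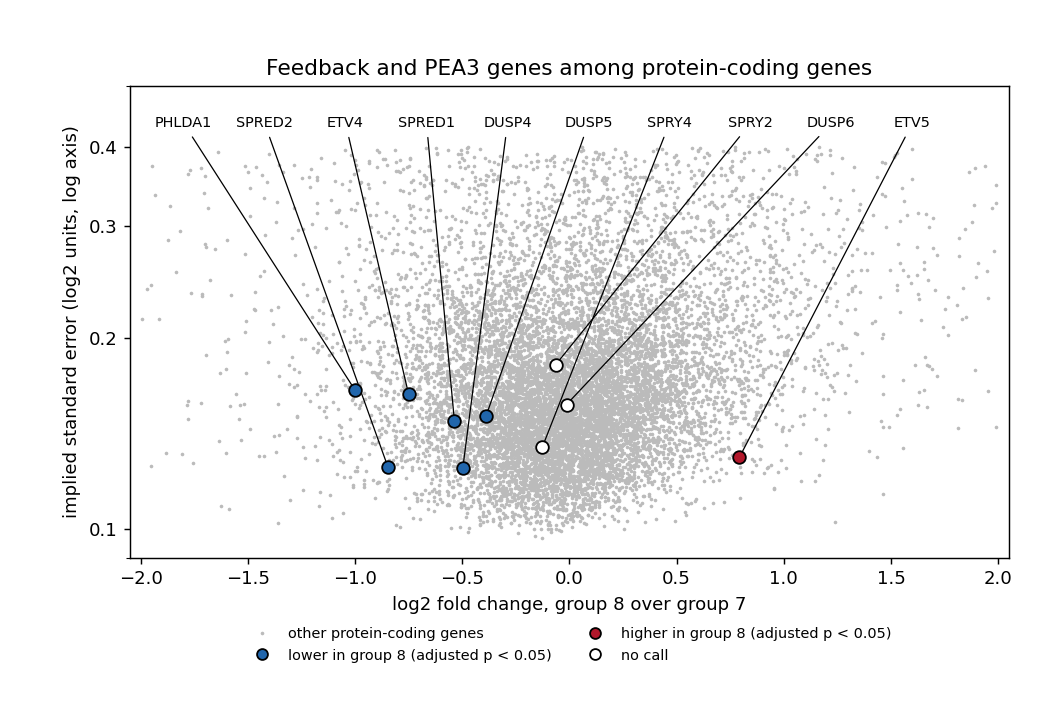
Log2 fold change (x axis) and implied standard error (y axis, log scale) of the 10 genes and of 11373 of 13609 protein-coding genes, those with an absolute log2 fold change up to 2 and a standard error up to 0.4. The 10 genes lie between 0.12 and 0.18 on the error axis, with 6 called points left of the centre and ETV5 right of it.

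The implied standard errors of the 10 genes lay between 0.12 for DUSP4 and 0.18 for SPRY2, beside a median of 0.18 over the protein-coding genes. Of the protein-coding genes, 46.0% had a larger error than SPRY2, 63.3% than DUSP6, 82.5% than SPRY4 and 90.1% than DUSP4. For the called PHLDA1 and DUSP5 these shares were 56.6% and 68.5%. In the order of values, PHLDA1, SPRED2 and ETV4 came lowest and their intervals overlapped. SPRED1, DUSP4 and DUSP5 followed with intervals that overlapped one another, then SPRY4, SPRY2 and DUSP6, whose intervals all held 0. The intervals of SPRED1, DUSP4 and DUSP5 also overlapped those of PHLDA1, SPRED2 and ETV4 and those of SPRY4, SPRY2 and DUSP6. ETV5 stood apart at the top with an interval that met none of the other 9.

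The wider families of phosphatases and of Sprouty and SPRED genes gave calls both ways. In the family of MAP kinase phosphatases, 7 genes lie outside the 10, of which 2 rose, 1 fell and 4 were not called in the authors' deposited table. Over protein-coding genes, 12.7% were called higher and 13.4% lower. Nuclear, inducible members other than DUSP4 and DUSP5 went in opposite directions: DUSP2 fell by 0.68 ± 0.22 with an adjusted p of 0.011, and DUSP1, a stress-induced phosphatase of p38, JNK and ERK, rose at 0.62 ± 0.20 with an adjusted p of 0.0112. The cytoplasmic ERK phosphatases related to DUSP6 were not called, with 0.24 ± 0.21 for DUSP7 and -0.29 ± 0.17 for DUSP9. Of the phosphatases that prefer JNK and p38, DUSP16 rose at 1.03 ± 0.18 with an adjusted p of 7.2e-07, the highest value of the family. DUSP8 and DUSP10 were not called, at 0.16 ± 0.26 and -0.01 ± 0.24.

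Outside SPRY2 and SPRY4, the Sprouty family gave calls both ways. SPRY1 fell by 0.85 ± 0.22 with an adjusted p of 0.00121, and SPRY3 rose at 0.76 ± 0.29 with an adjusted p of 0.04 in the authors' deposited table. SPRED3, the third SPRED gene, rose at 1.77 ± 0.41 with an adjusted p of 2.27e-04, opposite to SPRED1 and SPRED2. Counting all 7 Sprouty and SPRED genes, 3 fell, 2 rose and 2 were not called, beside 13.4% lower and 12.7% higher among protein-coding genes. With all deposited p-values adjusted together, 1 of these 3 paralogs was called higher in place of 2. Beside the PEA3 genes, the ETS genes that respond to ERK directly gave no call: ELK1 had -0.21 ± 0.18, ELK3 -0.28 ± 0.16, ELK4 0.37 ± 0.17, the repressor ERF -0.52 ± 0.22 and ETV3 0.06 ± 0.12. The capicua repressor gene CIC had 0.04 ± 0.13 and its partners ATXN1 and ATXN1L 0.39 ± 0.16 and 0.09 ± 0.12, none of them called. Unadjusted p-values were under 0.05 for ERF, at 0.0179, for ELK4, at 0.029, and for ATXN1, at 0.015.

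**Figure D3:**
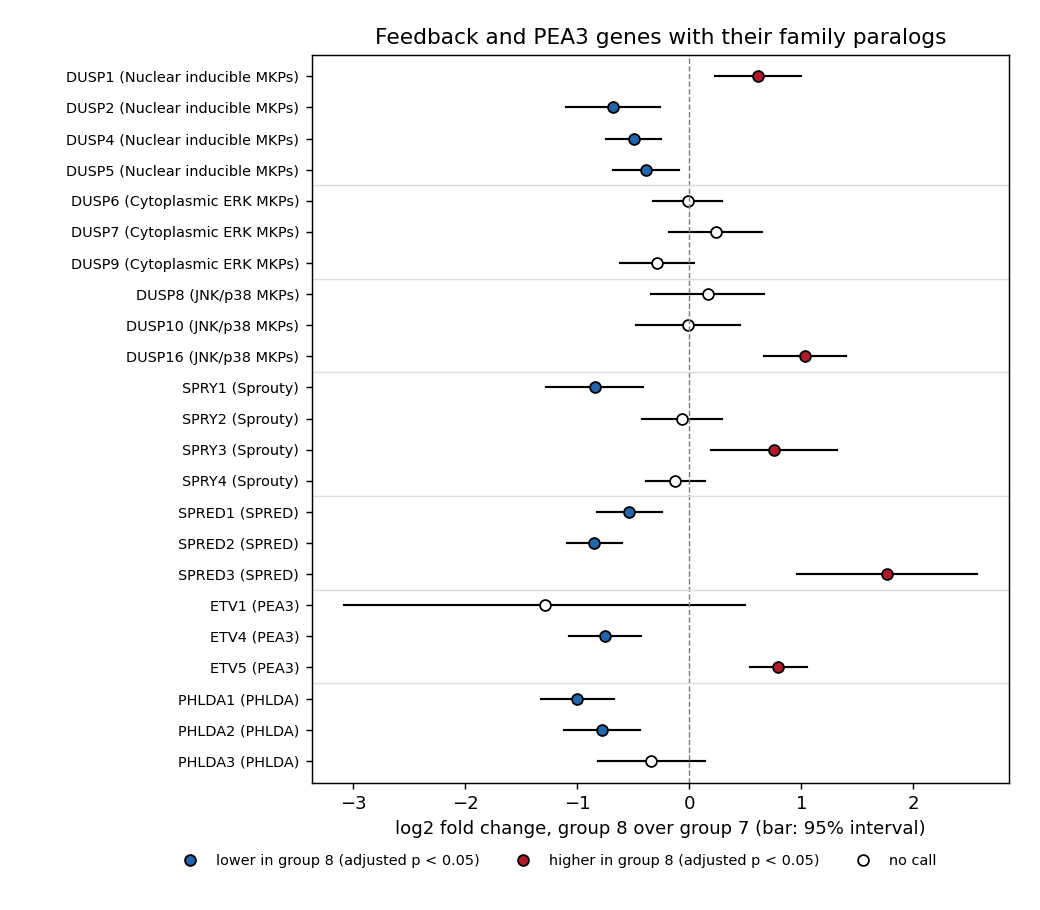
Log2 fold change of group 8 over group 7, with 95% intervals, for the feedback and PEA3 genes and the other members of their families. Calls of both directions stand in the nuclear phosphatases, Sprouty, SPRED and PEA3 families, and none of the 3 cytoplasmic ERK phosphatases was called.

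Together with CCND1, EPHA2 and EPHA4, 7 of the 10 genes make up a published 10-gene score of MAPK activity. In that set 3 genes fell, 1 rose and 6 were not called in the authors' deposited table, with a median log2 fold change of -0.095. The shares over protein-coding genes were 13.4% lower and 12.7% higher. The 3 genes from outside the 10 were all without a call: cyclin D1, CCND1, had -0.05 ± 0.11, and the ephrin receptor genes EPHA2 and EPHA4 had 0.15 ± 0.12 and -0.27 ± 0.16. A score was not computed, since the values run in opposite directions and levels were not used.

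Among 20 further ERK output genes, which include those 3, 6 fell, 1 rose and 13 were not called, with a median of -0.197. Over protein-coding genes, 13.4% were called lower and 12.7% higher. The 6 genes that fell all encode transcription factors. Other transcription factor genes of the list were not called, JUNB at 0.06 ± 0.22 and EGR3 at -1.66 ± 0.76. EGR1 fell by 1.26 ± 0.18 with an adjusted p of 6.78e-11, EGR2 fell by 2.40 ± 0.69, FOS fell by 1.14 ± 0.20, FOSB fell by 1.49 ± 0.34, FOSL1 fell by 0.69 ± 0.19 and MYC fell by 0.60 ± 0.12 in the authors' deposited table. MCL1, an anti-apoptotic BCL2 family gene, rose at 0.32 ± 0.11 with an adjusted p of 0.0168, a call that ended at a threshold of 0.01. This list was written with earlier results of these data known.

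Calls in both directions were also found within the cascade. Of 25 genes between the receptor adaptors and the ribosomal S6 kinases, 9 rose, 2 fell and 14 were not called, with a median log2 fold change of 0.195. Among protein-coding genes as a whole, 12.7% were called higher and 13.4% lower. The RAS-related genes RRAS2, RRAS and MRAS rose at 0.60 ± 0.14, 1.03 ± 0.25 and 0.95 ± 0.25, and the adaptor gene GAB2 at 0.95 ± 0.24 in the authors' deposited table. The kinase genes MAP2K2 and ARAF fell by 0.53 ± 0.15 and 0.48 ± 0.18. For 14 other brakes on the pathway, 2 rose, 4 fell and 8 were not called, beside the same shares of 12.7% and 13.4%. RASA3 and RASA1, which accelerate GTP hydrolysis on RAS, fell by 1.15 ± 0.21 and 0.48 ± 0.13, the RAF inhibitor gene PEBP1 by 0.45 ± 0.15 and the EGFR feedback inhibitor gene ERRFI1 by 0.39 ± 0.14. CBL, a ubiquitin ligase for receptors, rose at 0.75 ± 0.15, and IL17RD, a feedback inhibitor of FGF signalling, at 0.73 ± 0.25. NF1, the GTPase-activating partner of the SPRED proteins, had 0.35 ± 0.19 and no call, with an adjusted p of 0.179.

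Upstream, EGFR had a log2 fold change of 0.01 ± 0.11, with no call, and ERBB2 -0.03 ± 0.14. Of 12 EGFR family receptors and ligands, 1 rose, 3 fell and 8 were not called in the authors' deposited table. Here too the shares over protein-coding genes were 12.7% higher and 13.4% lower. The ligand genes AREG, EPGN and EREG had -1.47 ± 0.22, -2.12 ± 0.40 and -0.60 ± 0.16, all called lower, and the ligand TGFA rose at 0.97 ± 0.16. Of the 5 FGF receptor and MET genes in the table, FGFR3 fell by 0.91 ± 0.17, FGFR4 rose at 0.70 ± 0.22, and FGFR1 and MET were not called, at 0.48 ± 0.19 and 0.13 ± 0.14. FGFRL1 fell by 0.33 ± 0.12 with an adjusted p of 0.0341, a call that ended when all deposited p-values were adjusted together.

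**Figure D4:**
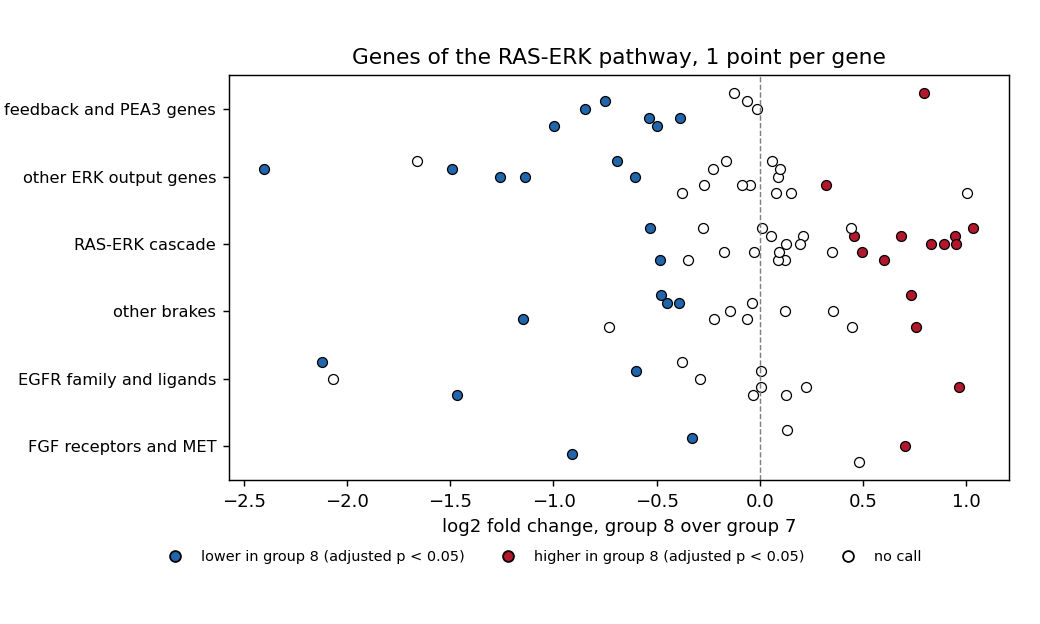
Log2 fold change of group 8 over group 7 for the feedback and PEA3 genes and for 5 further lists of the pathway, 1 point per gene (vertical spread within a list has no meaning). Called points lie mostly below 0 among the feedback and PEA3 genes and the other ERK output genes, and mostly above 0 in the cascade.

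In their 3' untranslated regions, 7 of the 10 genes carry the AU-rich word TATTTAT. The longest annotated 3' untranslated region ran between 675 bases for ETV4 and 5585 bases for SPRED1, beside a median of 1313 bases over 13384 protein-coding genes searched. The word TATTTAT, chosen after the fold changes were seen, occurred in DUSP4, SPRY2, SPRY4, SPRED1, SPRED2, ETV5 and PHLDA1, and in 34.4% of the searched genes. It occurred in 494 of 1794 genes called lower and in 792 of 1707 called higher. DUSP5, DUSP6 and ETV4 lack it. A longer region has more places for a word, and these shares were not matched for length. Another word, GACGTC, which was picked out in earlier results of these data, was held by 794 of the searched genes, 210 of those called lower and 80 of those called higher. It occurred 2 times in SPRED2 and 1 time in PHLDA1, the 2 genes with the lowest values, and in none of the other 8. Among those 8, 4 fell and 1 rose, beside 13.4% lower and 12.7% higher over protein-coding genes. GACGTC was picked out from these data and TATTTAT was chosen after the fold changes were seen, so these counts are no test of either word. The part of either word in the fold changes was not tested.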

How the data were processed

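For each gene the deposited table lists the log2 fold change, group 8 over group 7, together with a p-value and its adjusted form, all made by the authors per the file headers. The submitters' processing notes name DESeq2 1.20.0, featureCounts 1.5.0-p3, HISAT2 2.0.5 and CASAVA, without roles or settings, and the build is not given in the sources used here. Second strand synthesis used plain dNTP, per the labels' protocols, so strand is not marked. All 27655 identifiers and names match GENCODE 29 (GRCh38), as do the start and end of 27651 genes and of all 10 genes described. An adjusted p of 1 is listed for 9653 genes, and 2 genes have no p-value.

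Values per library or group, 20 columns, were left unused, as their codes match no label. No count model was fitted here. Standard errors are the size of the log2 fold change over the normal quantile that the two-sided p gives (scipy 1.17.1), and the computation was tested on simulated data. Lists were matched by symbol. The members, lists and words were chosen with earlier results of these data known. All members and family paralogs are named, and of other lists up to 4 called genes in each direction by adjusted p; further genes named were chosen after their values were seen. Alternatives were thresholds on adjusted p of 0.01 and 0.10, a minimum size of the log2 fold change of 0.5 or 1, adjustment over every p-value or over protein-coding genes, centring, and the mean. Fits on counts per library were not run. Promoter windows are RefSeq's, and 3' regions are the longest of GENCODE basic coding transcripts, of at least 50 bases. Some genes of the wider lists are not reported here by name.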

Additional observations from a re-analysis of the deposited data

How the results depend on the processing

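The counts of 6 lower and 1 higher stayed within 1.5 times at thresholds on adjusted p of 0.01 and 0.10, at a minimum log2 size of 0.5, and under both other adjustments. Without the members whose 3' untranslated region holds GACGTC, added after seeing the data, there were 4 lower and 1 higher. Those counts follow by construction, since the word was picked out from these data and its holders, SPRED2 and PHLDA1, were called lower. At a minimum log2 size of 1 there were 0 lower and 0 higher, by construction, since the lowest value, of PHLDA1, is -0.9998. The minimum of 0.5 left 4 lower, without DUSP4 at -0.4972 and DUSP5 at -0.3882. Of the other adjustments and the threshold of 0.01, DUSP5 was the only member whose call ended, with 0.072 when all deposited p-values were adjusted together, where more genes enter, and 0.0472 against 0.01. Centring by 0.005 turned no direction of the 10. Of 22 counts over the wider lists, 9 moved at 0.01, by construction of the threshold: lower calls became 0 for phosphatases, 1 for the cascade, 2 for other brakes and 1 for FGF receptors and MET, and higher calls became 1 for phosphatases, 1 for Sprouty and SPRED, 1 for other brakes, 0 for ERK outputs and 0 for FGF receptors and MET. At 0.10, 3 moved: ETS genes had 1 lower, capicua genes 1 higher and FGF receptors and MET 2 higher. With all p-values adjusted together, 2 moved: FGF receptors and MET had 1 lower, without FGFRL1, and Sprouty and SPRED 1 higher, without SPRY3. No paired analysis was possible because the library columns match no label and were not used. Leaving out libraries, other normalizations and count filters were not run, since library columns were unused, so depth, and whether 1 library decides a value, are not known here.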

Other observations

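Values were also read in the authors' deposited table for the other dual-specificity phosphatase genes, most of them atypical members without an ERK-binding domain. These genes were listed after values had been seen. Of 12 in the table, 10 had an adjusted p below 1, of which 1 fell and the rest were not called, beside 11.2% of all tested genes called lower and 10.4% called higher. DUSP23 fell by 0.63 ± 0.20, with an adjusted p of 0.013. DUSP3, a phosphatase of ERK and JNK, had -0.32 ± 0.14 with an adjusted p of 0.102, and DUSP22, which acts in JNK signalling, had 0.26 ± 0.16 with an adjusted p of 0.256.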
